A study of Arabidopsis thaliana with 3 samples.

Results

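Upstream splice acceptors that lengthen an exon by 13 nucleotides (nt) or more were listed 2239 times in 1848 nuclear genes of Arabidopsis thaliana leaves. They were taken from the authors' table of alternative splicing events as the shifted acceptors (class ALTA, read here from the coordinates as a moved 3' splice site) with a plus sign and a length of at least 13 nt. They make up 2239 of 8817 nuclear shifted acceptors and of 62909 listed events in all. The choice used class, sign and length and no read count. RNA came from pooled first true leaves of untreated Col-0, the reference accession, grown at 20 °C with 16 h of light and 8 h of darkness and 70% humidity, and it was sequenced in 3 libraries labelled as replicates of 1 group. Per the labels, no other genotype, treatment or age was sequenced, so the comparisons are among the members, between the libraries, and with other acceptor shifts. Nothing in the labels tells if each pool was grown and harvested on its own, so p-values over libraries measure only the spread between these libraries, which may be technical.

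An intron ends at its acceptor, where the spliceosome joins the exon that follows. Acceptors of plant introns end almost always in AG after a stretch rich in pyrimidines, which the U2AF heterodimer recognises. When an AG farther upstream is used, the end of the intron stays in the messenger RNA as extra exon sequence. Such a stretch can shift the reading frame or bring in a stop codon, and a stop codon well upstream of the last exon junction is a known mark for nonsense-mediated decay (NMD), a surveillance pathway that degrades the transcript. In a 5' untranslated region (UTR) the extra sequence can bring in start codons ahead of the main reading frame.

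The members' junctions had a median of 248, 236 and 405 reads in replicates 1, 2 and 3, and the members a median of 5, 4 and 8 alternative reads. Over all 46303 nuclear junctions between neighbouring exons the libraries held 34587113, 33141594 and 62624801 reads, so replicate 3 is the deepest. The level of a member is its alternative reads in percent of all reads the table gives for its junction. It was used for the 2157 members between neighbouring exons, since the other 82 carry gene-wide totals. Of these 2157, 513 had 10 or more alternative reads in each library, a filter that favours high levels and deep junctions. The table lists only events with at least 1 alternative read in every library. All 6 mesophyll markers and all 3 guard cell markers looked up were in the table, as were the trichome marker GL2 and the vascular marker XCP1. Of the epidermis markers ATML1 was in it and PDF1 was not. Of 3 flower markers only AGAMOUS (AG) was, with 18, 6 and 23 reads at 1 junction. A gene without a listed event is not in the table, so a missing marker does not show that its tissue is absent.

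The sequences below are those of well-read members in coding regions whose added stretch is at most 150 bases, and they show how the members are built. Each begins 20 bases before the upstream site, runs through the added stretch and ends 6 bases into the exon that the annotation starts at the numbered acceptor. The AG that ends the intron at the upstream site and the AG of the numbered acceptor are in capitals, so the added stretch is what follows the first capitals up to and including the second. Coordinates and strand are those of the whole run in the RefSeq assembly TAIR10.1.
SDG2 (chr4:8654922-8655000, plus strand): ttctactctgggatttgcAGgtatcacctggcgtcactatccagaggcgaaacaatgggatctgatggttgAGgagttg
AT3G07030 intron 5 (chr3:2224039-2224077, minus strand): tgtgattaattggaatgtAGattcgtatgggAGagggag
AT3G07030 intron 7 (chr3:2223574-2223613, minus strand): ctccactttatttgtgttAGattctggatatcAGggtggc
AT1G70505 (chr1:26571884-26571926, plus strand): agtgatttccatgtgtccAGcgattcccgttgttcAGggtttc
AT5G06220 (chr5:1882876-1882920, plus strand): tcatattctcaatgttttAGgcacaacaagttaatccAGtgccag
AT2G20820 (chr2:8964958-8965027, plus strand): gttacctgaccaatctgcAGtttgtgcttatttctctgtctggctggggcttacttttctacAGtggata
EMB3142 (chr5:20810587-20810669, plus strand): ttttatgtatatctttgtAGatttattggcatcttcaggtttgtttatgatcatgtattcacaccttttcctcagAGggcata
AT3G08650 (chr3:2626898-2626997, minus strand): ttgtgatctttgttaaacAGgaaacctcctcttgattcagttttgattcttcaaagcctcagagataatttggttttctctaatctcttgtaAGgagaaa
CYP38 (chr3:189693-189746, plus strand): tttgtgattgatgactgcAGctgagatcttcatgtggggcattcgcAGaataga

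All 9 have an AG at both sites, and they differ in what lies before the second one. In SDG2 the bases ahead of the numbered AG are mixed, while in AT2G20820 they are mostly pyrimidines.

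Members of a duplicated pair are shown in the same way, because the pairs let the 2 copies of an added stretch be read against each other. UAP56a and UAP56b encode the same RNA helicase of messenger RNA export. AT2G47250 and AT3G62310 encode RNA helicases, and AT2G24060 and AT4G30690 encode translation initiation factors of the IF3 kind.
UAP56a (chr5:3554081-3554242, plus strand): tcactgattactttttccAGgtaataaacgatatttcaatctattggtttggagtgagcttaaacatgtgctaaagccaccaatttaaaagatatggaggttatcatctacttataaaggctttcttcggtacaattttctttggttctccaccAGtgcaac
UAP56b (chr5:3568122-3568283, plus strand): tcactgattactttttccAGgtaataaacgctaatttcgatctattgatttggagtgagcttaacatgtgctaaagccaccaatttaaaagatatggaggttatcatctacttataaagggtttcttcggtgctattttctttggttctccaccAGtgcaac
AT2G47250 (chr2:19400811-19400945, minus strand): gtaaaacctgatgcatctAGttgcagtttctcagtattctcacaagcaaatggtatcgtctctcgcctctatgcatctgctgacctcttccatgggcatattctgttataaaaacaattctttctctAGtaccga
AT3G62310 (chr3:23058397-23058540, minus strand): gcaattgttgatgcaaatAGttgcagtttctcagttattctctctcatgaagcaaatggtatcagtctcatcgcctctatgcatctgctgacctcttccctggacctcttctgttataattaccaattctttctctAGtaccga
AT2G24060 (chr2:10229908-10229952, plus strand): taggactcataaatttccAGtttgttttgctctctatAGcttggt
AT4G30690 (chr4:14961188-14961229, plus strand): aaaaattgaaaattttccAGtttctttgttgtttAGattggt

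The added stretches had a median length of 39 nt (interquartile range 20 to 158 nt, range 13 to 6483 nt). The numbers per length declined from about 20 nt on, with 93 members of 17 nt, 31 of 29 nt and 14 of 30 nt. At the edge of the length rule, the 70 members of 13 nt had a median level of 2.79% ± 0.473 and the 46 events of 12 nt just outside it 2.75% ± 0.330 (SD over the 3 libraries, n = 3, as for all levels). In 2085 of 2157 members the numbered acceptor abuts an annotated intron, and 2081 of the added stretches lie wholly inside that intron. By the annotated transcript, 1662 members lie in coding sequence, 349 in the 5' UTR, 42 in the 3' UTR and 28 in noncoding genes. First introns held 665 members and last introns 336. The 5 chromosomes held 591, 337, 453, 341 and 517 members.

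**Figure D1:**
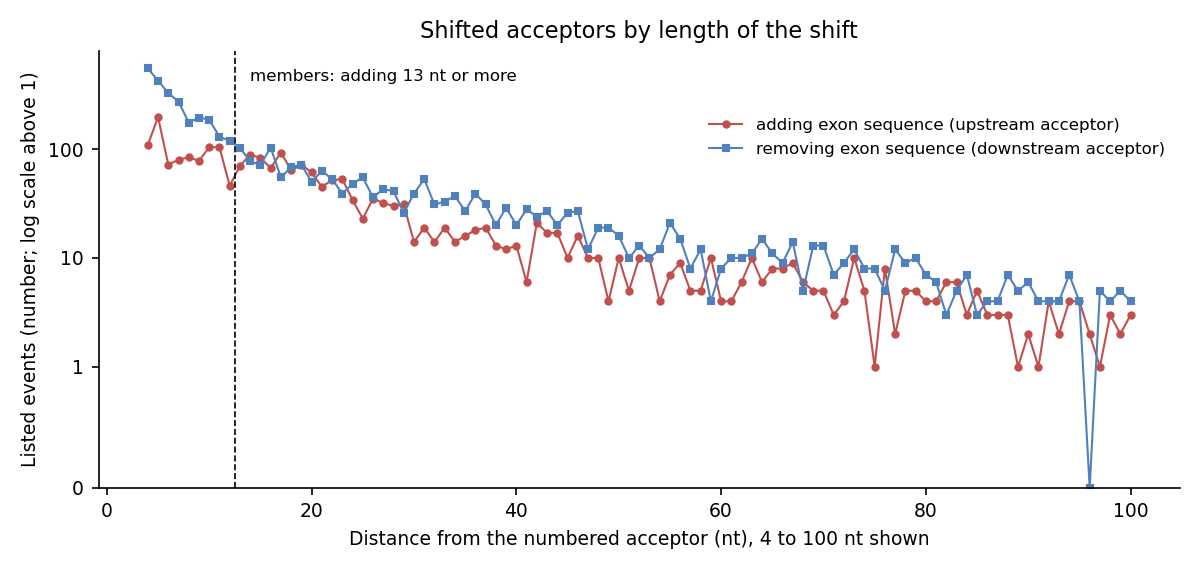
Number of listed shifted acceptors (vertical axis, log scale above 1) by distance from the numbered acceptor in nt, for events between neighbouring exons that add (circles) or remove (squares) exon sequence; the dashed line marks the 13 nt limit. Adding events number 70 at 13 nt, 93 at 17 nt and 14 at 30 nt, against 103, 55 and 39 removing events.

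Junctions with several members were few, with 147 of 1986, and 1 junction held 5 members. Most genes (1543) had 1 member, and 57 genes had 3 or more. An exon of another annotated gene overlaps 88 of the added stretches. Whether the libraries keep strand is not stated in the labels. Reads of the neighbour thus cannot be told apart from reads of the member there.

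Most long upstream acceptors were used at low levels. The median level was 2.38%, 2.04% and 1.94% in replicates 1, 2 and 3, a mean of 2.12% ± 0.230. Of the 2157 members 675 (31.3%) lay below 1%, 462 (21.4%) reached 10%, and 73 were at 50% or more in all 3 libraries. In 217 members the upstream form had more reads than the numbered form in all 3 libraries, and 155 of these had 10 or more alternative reads in each. Only 4 members had a mean level of 90% or more.

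Against acceptors that remove 13 nt or more, the members' median level differed little, with 2.12% ± 0.230 in members and 2.03% ± 0.191 in 2133 removing events. The difference was 0.0876 ± 0.0400 percentage points and had the same sign in 3 of 3 libraries. With 3 libraries the exact two-sided sign-flip permutation test cannot go below p = 0.25, the value it gave here, so no difference of this kind can pass 0.05. With 10 or more alternative reads in each library the difference turned round, to 12.8% ± 0.477 in members and 32.1% ± 0.437 in removing events. At 90% or more lay 4 members, against 169 removing events. Shorter additions had higher levels. The members' 2.12% ± 0.230 stood against 5.93% ± 0.140 in 874 additions of 4 to 12 nt, a difference of -3.80 ± 0.251 points. It stood against 7.83% ± 0.356 in 315 additions of 3 nt, a difference of -5.71 ± 0.583 points. Both differences had the same sign in 3 of 3 libraries. Junctions of the members had a median of 298 reads (mean of the libraries) and those of the 4 to 12 nt additions 205. At junctions with 100 or more reads in each library the differences were -1.10 ± 0.205 points from the 4 to 12 nt additions and -2.94 ± 0.216 points from the 3 nt additions. With 10 or more alternative reads they were -6.17 ± 0.509 and -2.71 ± 0.153 points.

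**Figure D2:**
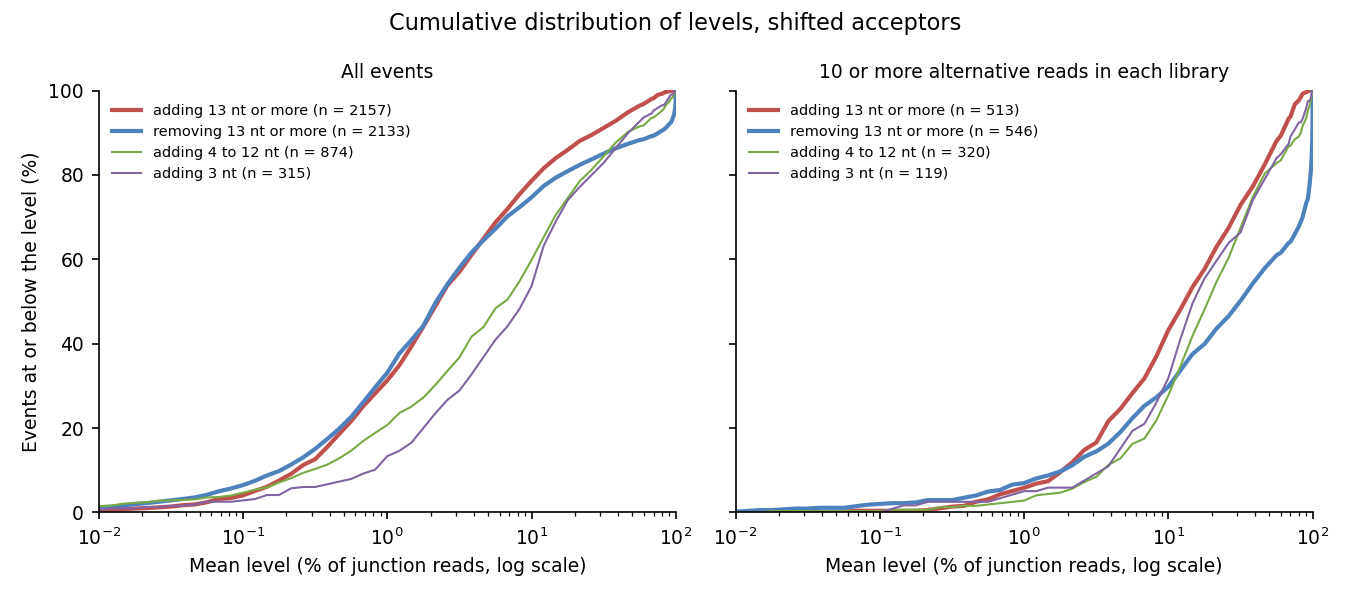
Cumulative share of events (vertical axis, %) at or below a mean level (horizontal axis, % of junction reads, log scale) for the members and 3 other kinds of acceptor shift, over all events (left) and over those with 10 or more alternative reads in each library (right). The members' curve follows that of the removing events at low levels; the removing events alone climb steeply near 100%, where 169 of 2133 lie at 90% or more.

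By added length, the median level was 2.27% ± 0.443 for 13 to 19 nt (538 members), 1.84% ± 0.0880 for 20 to 49 nt (678), 2.76% ± 0.203 for 50 to under 150 nt (373) and 2.11% ± 0.294 for 150 nt or more (568). The 50 to under 150 nt group was highest in each library, and the ranges of the other 3 groups over libraries overlapped. With 10 or more alternative reads in each library the order changed, and the 20 to 49 nt group was highest in each library, with 17.7% ± 1.05 (158 members) against 12.7% ± 1.19 (93) for 50 to under 150 nt. In the 5' UTR the median level was 2.17% ± 0.112, in coding sequence 1.94% ± 0.25.

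Of the 8 members with the highest levels among those with 10 or more alternative reads in each library, 7 took nearly all spliced reads of their junction, with at most 3.08% of junction reads at the numbered acceptor in any library. SDG2 (AT4G15180), a histone methyltransferase for lysine 4 of histone H3, used an acceptor 53 nt upstream at intron 4 (chr4:8654942-8654994) at 93.8%, 93.8% and 94.2%. The 3 libraries lay within 1 point, no read used the numbered acceptor, and the retained intron made up the other 6.09%. The upstream site of SDG2 is absent from the annotation used here. The Alba-type DNA- and RNA-binding protein gene AT3G07030 had such sites at intron 7 (14 nt; 90.2%, 94.8% and 91.7%) and at intron 5 (13 nt; 82.7%, 89.9% and 82.2%). The intron 5 site had no read at its numbered acceptor in any library.

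Another 5 of the highest lay in unrelated genes. The leucine-rich repeat receptor-like kinase gene AT1G53430 (24 nt) averaged 86.5% ± 4.61, and ML3, a gene of the MEI2-like RNA-binding family (88 nt), 86.5% ± 3.39. ACA8, a calcium pump of the plasma membrane, had a 16 nt addition in its 5' UTR at 77.8%, 91.3% and 84.8%. AT1G70505 (17 nt) averaged 84.7% ± 2.76. AT3G50380, annotated as a putative vacuolar sorting protein (21 nt), had 69.4%, 100% and 80.5% from only 25, 14 and 33 alternative reads, the widest spread of the 8. Its numbered acceptor kept 30.6%, 0% and 19.5%.

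Ranked by alternative reads, which favours abundant transcripts, other genes led. The 4936 nt member of LpxC3 had the most, with 14860 over the 3 libraries, and is taken up below with LpxC2. The next paragraphs give those outside these 2 genes. AT2G20820, an uncharacterized protein gene, had 1433, 1035 and 2202 alternative reads, which is 64.99%, 64.7% and 66.8% of junction reads. Its numbered acceptor had 0.627% and its retained intron 33.9%, so the upstream site took 99.2%, 99.1% and 98.8% of the spliced reads. AT5G06220, a LETM1-like protein gene, used a site 19 nt upstream at 79.0%, 73.9% and 75.5%, with no read at the numbered acceptor. ATSK12, a kinase of the GSK3/shaggy family, added 29 nt of 5' UTR at 69.4%, 72.6% and 75.9%. The libraries of ATSK12 differed beyond counting error (adjusted p = 0.0350, chi-square homogeneity test). PPC2, a phosphoenolpyruvate carboxylase, added 98 nt of 5' UTR at 13.6%, 13.99% and 14.1%. Its first intron was listed as retained in 85.3% of reads, and 0.873% used the numbered acceptor.

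Of the members with the most reads, CYP38, a cyclophilin of the thylakoid lumen needed for photosystem II assembly, was the one in which the numbered acceptor led. Its site 28 nt upstream (chr3:189713-189740, not annotated) had 1023, 1065 and 1546 alternative reads, which is 18.3%, 19.01% and 14.4%, against 69.2% at the numbered acceptor. Replicate 3 lay below the other two, and the libraries differed beyond counting error (adjusted p = 4.37e-14, chi-square homogeneity test).

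Members near an even split mostly shared their junction with reads listed as the retained intron. How intronic reads were counted is not stated, and the part that reads in the added stretch have in these values was not tested. EMB3142, a nuclear pore protein gene, had 40.3%, 52.1% and 59.6% (57 nt), with 49.1% retention and 0.184% at the numbered acceptor. The ZIP metal transporter gene AT3G08650 had 45.0%, 50.9% and 49.7% (74 nt), with 47.8% retention. PAH1, a phosphatidate phosphatase of lipid synthesis, had 45.9%, 47.0% and 49.3% (46 nt, 5' UTR), with 46.4% retention. ABF1, a transcription factor of the abscisic acid response, had 45.0%, 53.5% and 52.1% (42 nt, 5' UTR). It kept 9.24% at the numbered acceptor, the highest share of these 4. The disease resistance gene AT5G43740 (27 nt, 5' UTR) averaged 50.8% ± 5.13, and the coatomer gene AT1G79990 (567 nt) 47.8% ± 0.681. The stretches of ABF1 and AT1G79990 overlap an exon of another annotated gene.

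**Figure D3:**
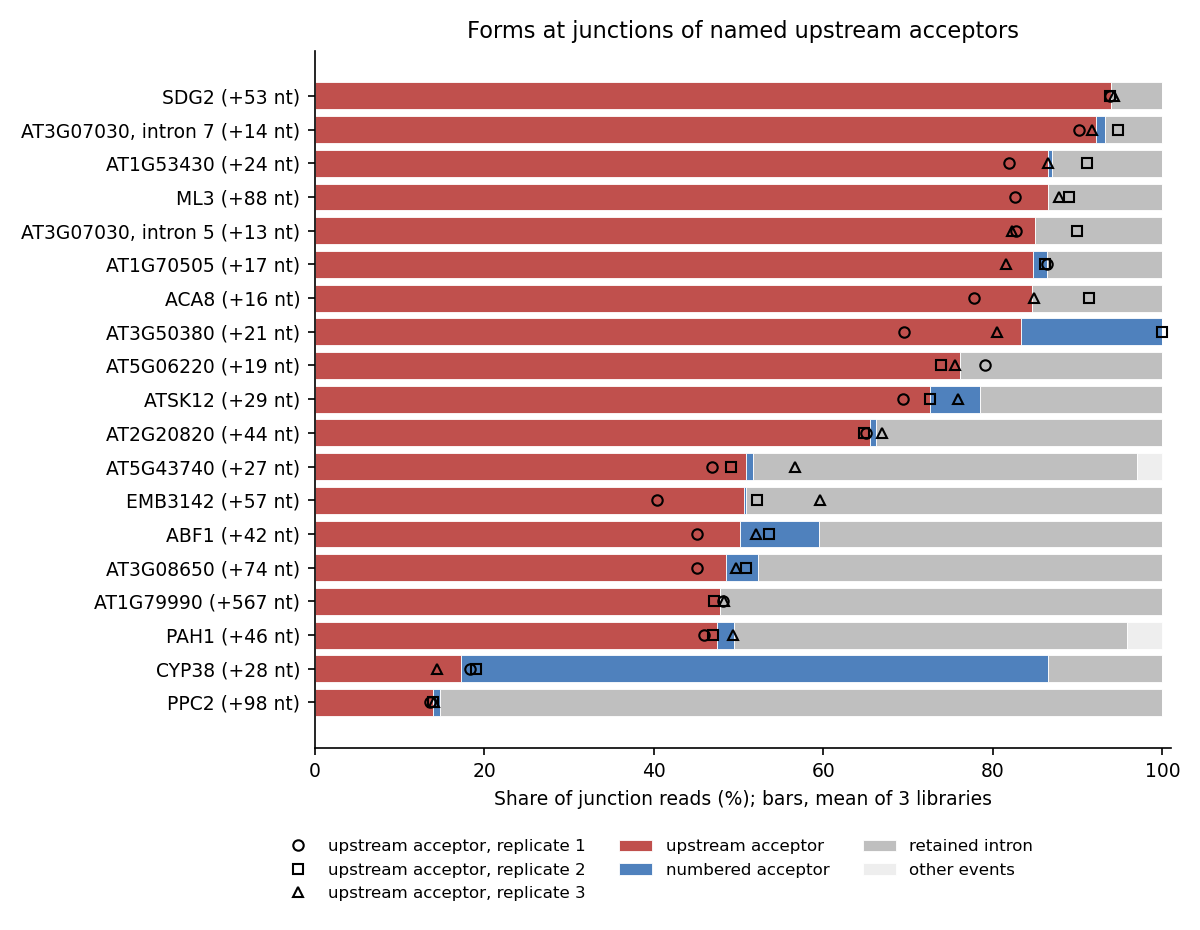
Mean share of junction reads (horizontal axis, %, 3 libraries) of the upstream acceptor, the numbered acceptor, the retained intron and other events at the junctions of the named members with the most reads, the highest levels or levels nearest 50%; open symbols give the upstream acceptor in each library. The members of LpxC2 and LpxC3, which are among those with the most reads, are left out. SDG2 sits at 93.9% with no numbered form, and CYP38 is the member shown in which the numbered form (69.2%) is the largest.

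The longest well-read members lie in LpxC2 and LpxC3, tandem copies of a deacetylase gene of lipid A-type synthesis, where additions of 4118 to 4936 nt span other annotated genes. The 4936 nt member of LpxC3 had 28.9%, 35.3% and 35.8%, and its libraries differed beyond counting error (adjusted p = 3.8e-40, chi-square homogeneity test). The copies are near-identical, other genes lie inside the stretches, and the reads may be shared between copies, so these values are uncertain. Outside that cluster, PAA1 (AT4G33520), a copper-transporting ATPase of the chloroplast, is named after its value was seen. It used an acceptor 701 nt upstream in intron 3 at 29.3%, 27.7% and 29.5%, with 3.48% at the numbered acceptor.

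In coding sequence, 520 of 1662 added stretches (31.3%, 95% exact binomial interval 29.1 to 33.6%) had a length divisible by 3. The share was 30.4% in the 5' UTR (349 members) and 31.6% among 1744 coding removals of 13 nt or more. For the frame, each stretch was placed alone into the annotated transcript that uses the numbered acceptor. This was also done where no read used that acceptor, as in SDG2 and AT5G06220, both scored as frame-shifting. Whether the transcripts present at such introns carry an early stop was not tested. Only 167 members (10.05%) kept the frame with no stop codon in it. Another 353 (21.2%) kept the frame but held a stop codon, and 1142 (68.7%) shifted it. So placed, 1488 of 1662 (89.5%) brought an early stop codon, 958 of them inside the added stretch and 530 downstream of it. The stop lay 50 nt or more before the last exon junction, the usual mark for NMD, in 1313 of the 1488 (88.2%). Those 1313 had a median level of 2.14% ± 0.254, against 1.05% ± 0.0538 in the other 175. This contrast is over all members, without the read filter and without a match for depth or length.

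The order of the frame outcomes by level was not the same over all members and over the well-read ones. Over all members the 167 that kept the frame without a stop had a median of 1.15% ± 0.147, the 353 with a stop in frame 2.22% ± 0.359, and the 1142 frame-shifting ones 1.95% ± 0.252. With 10 or more alternative reads in each library the order turned to 35.9% ± 4.18 (27 members) for those without a stop, 9.41% ± 0.725 (85) with a stop and 12.7% ± 0.409 (241) for shifted frames. These differences had one sign in 3 of 3 libraries both ways (exact sign-flip permutation p = 0.25, the smallest possible). At 50% or more in all 3 libraries were 13 of the 167 members without a stop, 6 of the 353 with one and 24 of the 1142 frame-shifting ones. The frame-keeping members without a stop are short, with a median of 21 nt, against 75 nt with a stop. Within 20 to 49 nt the medians were 0.523% ± 0.0694 without a stop (75 members), 2.19% ± 0.467 with one (96) and 1.62% ± 0.133 shifted (369). In the same length range, with 10 or more alternative reads they were 44.8% ± 9.69 (11), 8.71% ± 1.73 (24) and 16.7% ± 1.34 (69). The other lengths did not repeat the order over all members. At 13 to 19 nt the medians were 1.79% ± 0.574 without a stop (73), 1.79% ± 0.513 with one (53) and 2.10% ± 0.434 shifted (329), which overlap over libraries. At 50 to under 150 nt those without a stop were higher on average but spread widely, with 11.5% ± 6.31 from 16 members, against 3.68% ± 0.722 with a stop (70) and 2.03% ± 0.252 shifted (204). The filter on reads selects by level, and its part in the turn was not tested.

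ATG2 and DOT3 were among the frame-keeping members without a stop that took more than 50% of their junction in every library. ATG2, a lipid transfer protein of autophagy, gained 66 nt at 54.8%, 56.7% and 57.8%, with no read at the numbered acceptor. DOT3, a gene of the NPH3 family, gained 45 nt at 65.5%, 55.9% and 58.0%. The DNase I-like gene AT1G31500 gained 15 nt at 45.3%, 31.6% and 32.8%, with replicate 1 above the others (adjusted p = 0.0136, chi-square homogeneity test). RLM3, an immune protein of the TIR class, gained 15 nt at 5.32%, 7.16% and 6.24%.

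Among members scored as having an in-frame stop, SRX and AT3G03270 were main forms too. SRX, sulfiredoxin, which repairs over-oxidised peroxiredoxins, gained 129 nt with an in-frame stop at 64.0%, 74.5% and 72.2% (adjusted p = 0.00243, chi-square homogeneity test), against 9.95% at the numbered acceptor. AT3G03270, a gene of the adenine nucleotide hydrolase-like family, gained 627 nt at 74.7%, 71.7% and 68.6%, with no numbered form and 28.3% retention. Lower levels were seen in AT2G45250 (198 nt), which averaged 39.4% ± 4.29, and in the beta-glucosidase gene BGLU33 (216 nt), with 28.4% ± 2.59. Their numbered acceptors had 0.616% and 0% and their retained introns 10.2% and 0.383%, so other events held the rest. The upstream sites of SRX, AT3G03270, AT2G45250 and BGLU33 are annotated, so another annotated transcript already uses them. AT3G49140, a pentatricopeptide repeat gene (180 nt, not annotated), averaged 12.1% ± 1.8, against 67.5% at the numbered acceptor.

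In the 5' UTR, 206 of 349 members (59.03%, 95% exact binomial interval 53.7 to 64.2%) brought in at least 1 start codon ATG. Their median level was 1.60% ± 0.138, against 3.68% ± 0.559 in the 143 without one, and with 10 or more alternative reads 6.87% ± 0.981 (42 members) against 26.8% ± 0.436 (60). Length moved with this split, since the stretches with a start codon had a median of 179.5 nt and those without 23 nt, and all 125 of 150 nt or more held one. Within 20 to 49 nt the medians were 3.30% ± 1.24 (33) with and 3.67% ± 0.445 (68) without a start codon, which overlap. At 50 to under 150 nt they did not overlap, with 1.84% ± 0.239 (36) with and 3.09% ± 0.305 (18) without one. With 10 or more alternative reads the medians within 20 to 49 nt were 17.8% ± 1.5 (9) and 29.6% ± 2.06 (30).

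The upstream site ended in AG in 2130 of 2155 members (98.8%, 95% exact binomial interval 98.3 to 99.2%). Both acceptors had a median of 60% pyrimidines in the 20 bases before them. They differed next to the AG. The base just before the AG was a pyrimidine in 83.0% of upstream and 89.98% of numbered acceptors, and the first exon base was G in 27.2% and 47.3% of them. A score of each site against annotated acceptors (the sum over 23 positions of the log2 odds of its bases in annotated acceptors against the genome) had a median of 5.16 at upstream and 6.999 at numbered sites. The upstream site scored higher in 733 members (34.0%). Among those with 10 or more alternative reads in each library it did so in 48.3%, with medians of 6.06 and 6.31. No further AG lay between the 2 sites in 881 members (40.9%).

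**Figure D4:**
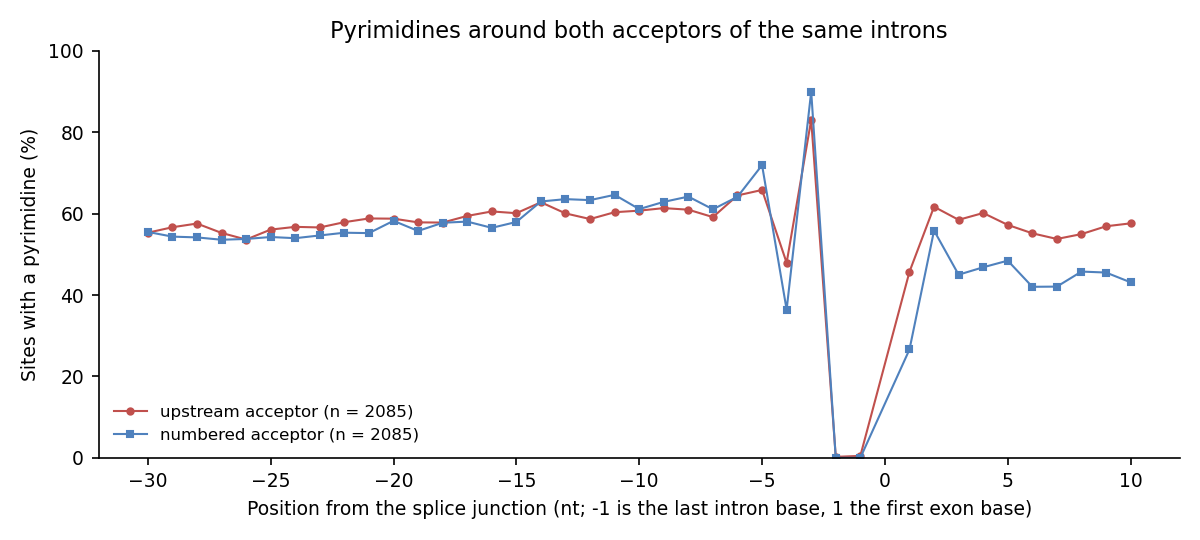
Share of sites with a pyrimidine (vertical axis, %) at each position around the upstream and the numbered acceptor of 2085 members whose numbered acceptor abuts an annotated intron; -1 is the last intron base. The profiles run close together over most positions before the AG. Next to it the upstream and numbered sites differ, at -5 (65.8% and 71.9%), at -4 (47.9% and 36.4%) and at -3 (83.0% and 89.98%). After the junction the upstream sites, which are followed by intron sequence, have more pyrimidines.

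The level followed the score difference between the sites. In members with 10 or more alternative reads the median was 4.78% ± 0.410 where the upstream site scored lower by 6 or more (50 members). It was 8.20% ± 0.347 from -6 to -3 (92), 11.99% ± 0.663 from -3 to 0 (123) and 17.0% ± 1.28 from 0 to 3 (132). Where the upstream site scored higher by more than 3 it was 27.0% ± 1.83 (116). The order was the same over all members, from 0.905% ± 0.0875 (384) to 7.77% ± 0.384 (302), but junction depth moved with it, from a median of 564 to 187 reads. The correlation of score difference and level across the 513 well-read members was r = 0.373 (Spearman's rho 0.361). It is across sites that share libraries, which are not independent replicates. SDG2, with scores of 10.6 upstream and 0.965 at the numbered site, is an example at one end. At the other end of the score differences RVE8, an activator of evening clock genes, was an exception to this order. It used a site scoring -1.16 beside a numbered site of 7.41 at 19.4%, 18.8% and 21.4%, above the 4.78% median of its score range.

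Annotated upstream sites had higher levels. The upstream site is the acceptor of another annotated transcript in 633 of 2155 members (29.4%). Their median level was 8.15% ± 0.211, against 1.35% ± 0.152 in the 1522 without annotation. The annotated share was 63.0% among members at 10% or more and 11.4% among those below 1%. Unannotated sites with many reads included those of SDG2, CYP38 and PHYC. The difference held within each length range, for example 10.7% ± 0.255 (126) against 1.44% ± 0.274 (412) at 13 to 19 nt.

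**Figure D5:**
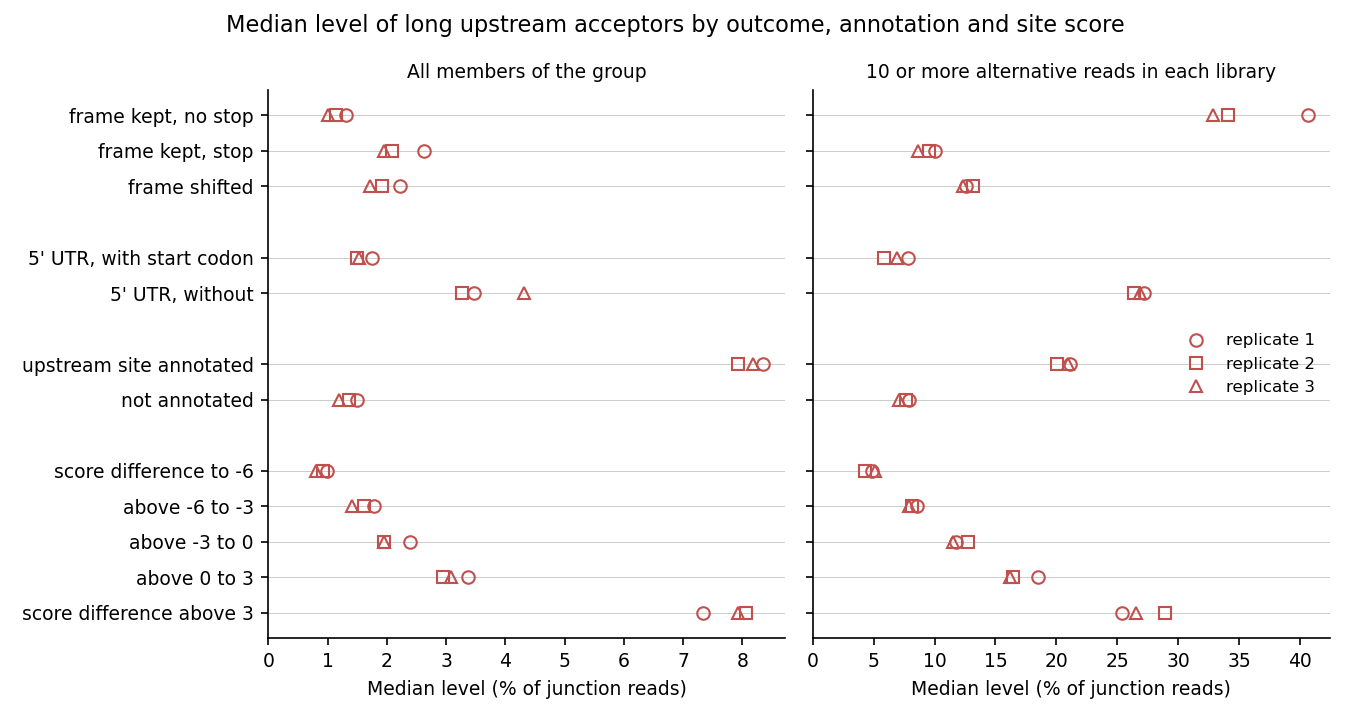
Median level (horizontal axis, % of junction reads) in each of the 3 libraries for groups of members by reading-frame outcome, start codon in the 5' UTR, annotation of the upstream site and score difference between the 2 sites, over all members (left) and over those with 10 or more alternative reads in each library (right). The frame-keeping group without a stop is lowest of its 3 on the left (1.15%) and highest on the right (35.9%).

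A retained intron was listed at the junctions of 1948 of 2157 members (90.3%), against 75.01% for removing events of 13 nt or more. Its median level there was 8.91% ± 0.594, against 5.09% ± 0.434 at the junctions of removing events. The retention level moved with the added length, from 4.96% ± 0.437 for 13 to 19 nt to 15.9% ± 1.41 for 50 to under 150 nt and 15.8% ± 1.86 for 150 nt or more. The counting rule for intronic reads is not stated, and the part that reads in the added stretch have in the retention values was not tested. As a share of spliced reads alone, the members' median was 2.61% ± 0.285, and 154 members were at 50% or more in all 3 libraries. When the upstream site is used, the intron left to remove has a median of 114 nt, against 210 nt for the full intron. It is shorter than 60 nt in 51 members (2.45%), and the shortest is 17 nt.

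The members were next compared between libraries. The chi-square test of homogeneity, fitted to all 62849 nuclear events with Benjamini-Hochberg adjustment at 0.05, called 127 of 2239 members (5.67%), while over all nuclear events it called 10.1%. Other acceptor shifts had shares near that of the members, with 5.06% of all nuclear shifted acceptors and 4.54% of acceptors removing 13 nt or more, while 12.1% of retained introns were called. Most members have too few reads for a missing call to show that their libraries were alike. Unadjusted p of this test was below 0.05 in 357 of 2239 members, and in 13881 of all 62849 nuclear events, a larger share. Among members with 10 or more alternative reads in each library, adjusted over such events only, 75 of 537 (13.97%) were called, against 23.7% of all such events. Replicate 1 was highest in 65 of the called members, replicate 2 in 40 and replicate 3 in 22. Without replicate 1 the count fell to 14. The split by replicate and this fall are not set against all nuclear events here, so whether they are particular to the members was not tested. The test allows only for read-counting error, so its calls include ordinary variation between libraries.

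Among called members with 10 or more alternative reads in each library, the 5 with the widest spread ranged over 20 points or more. Called members with fewer reads are not named here, and over all 127 the range reached 43.4 points, with a median of 6.80. AT3G07810, an RNA-binding protein gene, had 53.6%, 76.0% and 67.0% (chi-square homogeneity test, adjusted p = 1.23e-05), with replicate 1 lowest. AT5G53010, a calcium-transporting ATPase gene, had 30.7%, 59.6% and 52.2%, again with replicate 1 lowest (chi-square homogeneity test, adjusted p = 0.0193). AT1G55830, a coiled-coil protein gene, had 47.9%, 20.0% and 24.1%, and AT5G64600, an O-fucosyltransferase gene, 50%, 35.6% and 26.1%, with replicate 1 highest in both (chi-square homogeneity test, adjusted p = 0.0371 and 0.0359). DUF5, annotated as a putative polyribonucleotide phosphorylase, had 15.3%, 35.7% and 28.7% (chi-square homogeneity test, adjusted p = 0.0323).

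Among the gene lists looked up, the SR proteins had the highest share of genes with a member. Of the SR proteins, which bind exons and guide splice-site choice, 13 of 18 genes in the table did (72.2%), against 1848 of 14457 genes with any event (12.8%). These lists are short and were chosen with results known, and SR genes are deeper, with a median of 501 reads per junction against 174 over all genes. They also have a median of 6 introns, against 5 over all genes. The 13 SR genes held 22 members with a median added length of 232 nt, against 39 nt over all members. All 16 in coding sequence brought in an early stop codon, against 89.5% of all 1662 coding members. Several of the 16 share an intron, as in SCL33 and SR34. SR30 was highest, with a 338 nt addition at intron 10 at 24.8%, 25.7% and 27.5%, against 13.2% at the numbered acceptor and 60.8% retention. RS31 had a 513 nt addition at intron 2 at 10.1%, 14.1% and 10.6%. RS2Z32 (218 nt; 8.53%, 8.50% and 7.69%), SR34a (394 nt in the 5' UTR; 8.73%, 5.55% and 7.92%) and SR34 (511 nt; 7.505%, 5.28% and 7.11%) lay in a common range. RS2Z33 carried an addition of the same length as RS2Z32, 218 nt at intron 2, at 5.60%, 5.49% and 4.97%. Of the SR members, SCL30a (324 nt) was the one whose libraries differed beyond counting error, with 2.45%, 6.33% and 7.13% (adjusted p = 0.0188, chi-square homogeneity test). The other members lay in SR34b, RSZ22a, SCL30, SCL33, RS40 and RS41 and at further sites of SR30, SR34, SR34a, RS31 and RS2Z33.

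Other splicing factors held a member in 6 of 20 genes (30%), a share near those of light signalling (29.4%) and photosynthesis genes (26.5%). They had a median of 379 reads per junction, against 174 over all genes, and a median of 8 introns, against 5. U2AF65A, the large subunit of the dimer that binds the pyrimidine tract, had a 173 nt addition at intron 11 at 22.8%, 18.97% and 19.3%, beside 27.0% at the numbered acceptor and 52.7% retention. PTB1, a polypyrimidine tract-binding repressor of splicing, had a 244 nt addition at 21.4%, 12% and 14.7%. SKIP, a spliceosome component, added 176 nt of 5' UTR at 15.1%, 6.84% and 12.5%, lowest in replicate 2 (adjusted p = 0.0124, chi-square homogeneity test). The other 5 members, in U2AF65A, U2AF65B, PTB2 and PTB3, lay between 0.498% and 5.33%. Among NMD and exon junction genes 1 of 8 had a member, UPF3, with 15 nt that keep the frame at 0.816%, 0.847% and 0.266% from 5 reads in all.

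In light signalling 5 of 17 genes held a member (29.4%). PHYC, the photoreceptor phytochrome C, had a 36 nt addition with an in-frame stop at 31.0%, 34.0% and 34.6%, so that upstream, numbered (33.4%) and retained (33.4%) forms shared the junction about evenly. PHOT2, a blue-light receptor, COP1, SPA1 and DET1, repressors of light responses, had 0.676%, 3.52%, 1.2% and 2.10% on average. In the clock 2 of 17 genes held a member (11.8%), RVE8 and PRR7, a repressor of morning genes. PRR7 added 209 nt at 10.3%, 8.51% and 10.8%. Of photosynthesis genes 9 of 34 held a member (26.5%), at very deep junctions and very low levels. LHCA2, an antenna protein of photosystem I, had 56, 60 and 127 alternative reads of 116302, 124657 and 239686, a level of 0.0482%, 0.0481% and 0.0530%. It was the highest of the photosynthesis members with a level, and all 10 lay at or below 0.0498%. Flowering-time genes had 2 of 11 (FLM and FPA, at 0.573% and 0.405%), small RNA genes 2 of 12 and immune genes 1 of 10 (SNC1, 0.246%). RDR6, an RNA-dependent RNA polymerase, had 6.17%, 9.68% and 13.7% from 34 alternative reads, and DCL4, a Dicer-like enzyme, 3.54% ± 1.19 from 4.

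The title of the series names splicing in duplicated genes, so the members were followed into the paralogs. Of 861 coding members in genes with a reciprocal best protein hit, 589 had a homologous intron in a paralog that is in the table. For 75 of these 589 members (12.7%) the paralog had a long upstream acceptor there too. For 33 the paralog had another acceptor shift, for 237 a retained intron without an acceptor shift, for 5 another event and for 239 no listed event. Members can share an intron and both copies of a pair are counted, so these are not independent introns. An event not listed may be absent or below the limit of the table. Over all 46303 listed junctions 4.29% held a member, and of the 350 members with any listed event at the homologous junction 21.4% had a member there. The 75 fall into 31 pairs of introns, of which 10 had the same added length. The median difference in level between the copies was 1.47 points, and 24 of 31 pairs lay within 5 points. Of all members 64.9% lay at or below 4.64%, and many pairs had low levels in both copies, where a difference of 5 points could not arise. How close the levels of unrelated members lie was not tested. In 5 of the 31 pairs the proteins are at least 95% identical, where reads may be assigned to either copy.

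The 6 pairs with the most reads were as follows. RS40 and RS41 both added a long stretch with an in-frame stop at intron 2. RS40 had 10.1%, 9.53% and 7.92% (456 nt) and RS41 6.39%, 4.17% and 5.25% (525 nt), and 61.0% of the bases of the longer stretch were identical in a global alignment. UAP56a had 9.48%, 11.1% and 10.5% and UAP56b 7.20%, 8.42% and 6.67%. The 2 stretches shown above have 129 of 136 bases identical (94.9%), the proteins are identical, and reads may be shared between these copies. AT2G47250 had 5.04%, 7.01% and 5.46% (109 nt) and AT3G62310 8.67%, 10.3% and 8.90% (118 nt), with 102 identical bases (86.4% of the longer stretch). PTB1 and PTB2 shared the intron but not the length (244 and 663 nt), and PTB2 had 7.16%, 3.41% and 5.42%. AT2G24060 had 1.02%, 2.15% and 1.57% (19 nt) and AT4G30690 1.69%, 1.54% and 1.73% (16 nt), which overlap over libraries. LpxC1 and LpxC3 had the same 73 nt stretch and the same 19 alternative reads in every library, so that this pair does not give 2 separate measurements. Outside these 6 pairs, AT1G17990 and AT1G18020 (18 alternative reads each) and PGLP1 and AT5G36790 (4 each) also had identical stretches and identical proteins. They may not give separate measurements either.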

How the data were processed

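Total RNA from pooled first true leaves (3 libraries, 1 group) was DNase-treated and made into TruSeq libraries, per the labels' protocols. Base calling software CASAVA 1.8.2, the aligner GSNAP and the TAIR10 build are named in the submitters' processing notes. How events were classified, whether strand was kept and how intronic reads were counted is not stated. The deposited table holds the authors' raw counts of alternative and other reads per event and library, unnormalized. No label defines the class codes, which were read from coordinates. Depth sets the precision: with a median of 4 to 8 alternative reads, single low levels are imprecise, and intervals cover counting error only, since reads without molecular identifiers are not independent molecules.

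Levels are alternative counts in percent of junction reads. Of annotated transcripts, the one whose introns best abut the listed sites gave region, frame and stop codons (RefSeq annotation on TAIR10.1, nuclear chromosomes of the same length as TAIR10, positions 1-based). Homogeneity over libraries was tested by chi-square for all nuclear events (scipy 1.17.1, statsmodels 0.14.6, Benjamini-Hochberg at 0.05), after a check on simulated data. Medians were compared by exact two-sided sign-flip permutation over libraries. Paralogs are reciprocal best hits of 1 protein per gene (blast 2.17.0, E at most 1e-10, 50% of both proteins aligned), with introns homologous at the same aligned codon and phase (biopython 1.88). Named members are those with the most reads, those with the highest levels, the longest additions and, among called ones, the widest range (all 3 with 10 or more alternative reads in each library), those with levels nearest 50% (50 or more), and those with the most reads per gene list, per paralog pair and per frame-keeping outcome. The members and lists were chosen with earlier results of these data known. Alternatives varied the read filter, the denominator, events per junction, the length limit, the transcript, the test and the libraries used.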

Additional observations from a re-analysis of the deposited data

How the results depend on the processing

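The count of members called different between libraries was 127, and leaving out 1 library at a time gave 14 (without replicate 1) to 81 (without replicate 2). The shares over all nuclear events with 1 library left out are not given here, so these counts do not single out the members. Restricting the test to events with 10 or more alternative reads in each library gave 75 of 537 members. The cause of these lower counts was not tested, beyond the fewer samples or events that each setting keeps. A likelihood ratio test called 123. The median level of 2.12% became 12.8% with the read filter, 2.61% as a share of spliced reads and 2.37% with 1 event per junction, and 1.99 to 2.21% without 1 library. The read filter keeps 537 of 2239 members and moved the annotated share of upstream sites from 29.4% to 53.6%. Of the 5 differences between medians recomputed under each alternative it reversed 3: -19.3 points for the members minus removing events, and 26.4 and 23.2 points for frame-keeping members without a stop minus those with a stop and minus frame-shifting ones. Without that filter the last 2 were -1.07 and -0.800 points, and -1.002 and -0.575 points at junctions with 100 or more reads in each library, an alternative chosen after seeing the data. Members at 50% or more in every library numbered 73, and 154 as a share of spliced reads, likewise chosen after seeing the data. Leaving out genes with a protein hit of 95% identity, also added later, left 125 calls. Those 3 differences and the members' differences from both shorter additions kept their sign when 1 library was left out. No paired analysis was possible because the labels give 1 group. Sites with few reads limit what can be said of single members: 344, 434 and 247 members had 1 alternative read in replicates 1, 2 and 3.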

Other observations

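Of the spliced reads alone, 70 members took 90% or more in all 3 libraries, and 54 of these had 10 or more alternative reads in each. In these introns the acceptor numbered in the table was a minor form in the leaves sampled.

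Among all 2239 members, 2210 upstream sites end in AG. The rest end in AT (10 members), GG (10), TG (5), TC (1) and TT (1), and for 2 members no transcript was assigned. PRR7 has 1 of the TG members, 213 nt upstream at intron 5, 4 nt from its AG member of 209 nt, with 4, 3 and 2 alternative reads against 102, 72 and 135.

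Several paralogous introns shared a long upstream acceptor at unlike levels. They were chosen after their values were seen. AT4G22285 and AT4G22350 add 38 nt each, with 36 bases identical, at 1.03% and 16.6% on average. HRS1 (AT3G46100) adds 48 nt at 3.62%, and AT5G03406 adds 44 nt at 22.6%. AT3G50050 adds 17 nt at 46.8%, and AT5G43100 adds 16 nt at 23.4%. The difference between the genes of these pairs was not tested.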
